A study of Mus musculus with 4 samples.

Results

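The genes described here write or erase methyl groups on histone lysines, and were listed by name: 15 demethylases of the JmjC family, 18 methyltransferases and 3 core subunits of the COMPASS methyltransferase complexes, 36 genes in all. LSD1, the product of Kdm1a (formerly Aof2), was left out of the list because the study targeted it. Of the 36 genes, 34 had a probe set with a single gene symbol, among 18194 genes named on the array, and were followed on all arrays. Suv39h1 and Ash1l had none in the annotation used here, so their signals were not analysed. Suv39h1 does enter the promoter counts below. Where a gene had several probe sets, the one with the greatest average log2 signal stands for it.

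Methyl groups on histone lysines mark active or silent chromatin, depending on the lysine. JmjC demethylases remove them with iron and 2-oxoglutarate, whereas LSD1 uses flavin adenine dinucleotide, so the demethylases followed here do not need flavin. Most of the methyltransferases carry a SET domain and take the methyl group from S-adenosylmethionine, while Dot1l uses a different fold. In preadipocytes these enzymes are known for setting the chromatin state of adipogenic genes, with Kmt2c, Kmt2d and Kdm6a at enhancers and Ezh2 and the Ehmt enzymes at silent genes.

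The samples were 4 cultures of 3T3-L1, a line of mouse preadipocytes that forms fat cells after insulin, dexamethasone and isobutylmethylxanthine, and each culture was measured on 1 array. The control culture carried the siRNA siGL3, and 2 others carried an siRNA against aof2 or against rfk, the gene of riboflavin kinase. These 3 cultures were induced 24 h after transfection. A further culture had tranylcypromine, which blocks LSD1 and monoamine oxidases, added when it was induced. Its labels name no siRNA, so the drug and the lack of transfection cannot be told apart there. All 4 were grown in medium with 25 mM glucose and 10% serum and harvested 24 h after induction. With 1 array per group there is no replicate and no test between conditions; "higher" and "lower" describe single arrays, and their number limits the precision. Below, 4 signals in a row are those of the control, the aof2 siRNA, the rfk siRNA and the tranylcypromine array in that order, and 3 differences in a row are log2 values of the aof2 siRNA, then the rfk siRNA, then the tranylcypromine array minus control.

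The arrays had median signals of 53.3 to 56.2 and had been scaled to the same trimmed mean. The array labelled aof2 siRNA had Kdm1a at 19.5% of control and the array labelled rfk siRNA had Rfk at 27.0%, and each gene was between 87.4% and 110% of control on the other treated arrays. Of the preadipocyte markers, 4 of 5 were named and all 4 lay above the filter, a signal of 50.9 that is the median of all probe sets. The adipocyte markers Pparg, Cebpa and Fabp4 lay above it too, while Adipoq, the gene of adiponectin, lay below it on average. The summed signal of the preadipocyte markers was 16069, 20165, 18600 and 17251 and that of the adipocyte markers 3606, 2406, 1508 and 1998 in the control, aof2 siRNA culture, rfk siRNA culture and drug culture; their part in the members' values was not tested. Dlk1 and Pdgfra carry most of the first sum and Fabp4 and Pparg most of the second, and single markers went the other way, with Col1a1 at 1438, 983, 715 and 729 and Cebpa at 91.7, 135, 93.4 and 112. None of the 3 leukocyte markers (summed signal 77.4 to 138) and none of the 2 endothelial markers (17.6 to 30.2) reached the filter, and of the epithelial pair (217 to 307) Epcam did and Cdh1 did not.

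Promoter sequences are shown for 4 members to which the values below return. By the probe sets that stand for them, Kdm7a varied least across the arrays, Kmt2c was the writer furthest above control with tranylcypromine, Suv39h2 varied most among members above the filter, and Kdm4c is a known target of hypoxia-inducible factor. Each sequence is the 250 bases before an annotated start, 5′ to 3′ on the gene's strand, from RefSeq on GRCm38.p6. Capitals mark CG dinucleotides in Kdm7a, Kmt2c and Suv39h2. In Kdm4c, for which the start with matches is shown, capitals mark ACGTG or its reverse complement CACGT, the core letters bound by hypoxia-inducible factor; both overlap in CACGTG.
Kdm7a (chr6:39206774-39207023, minus strand): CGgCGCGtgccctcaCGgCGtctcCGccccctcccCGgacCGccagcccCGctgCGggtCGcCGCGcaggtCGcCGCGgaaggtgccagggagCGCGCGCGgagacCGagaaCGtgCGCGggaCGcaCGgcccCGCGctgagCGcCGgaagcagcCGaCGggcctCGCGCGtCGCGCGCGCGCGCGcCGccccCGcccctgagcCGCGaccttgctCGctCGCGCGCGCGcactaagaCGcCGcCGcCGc
Kmt2c (chr5:25498784-25499033, minus strand): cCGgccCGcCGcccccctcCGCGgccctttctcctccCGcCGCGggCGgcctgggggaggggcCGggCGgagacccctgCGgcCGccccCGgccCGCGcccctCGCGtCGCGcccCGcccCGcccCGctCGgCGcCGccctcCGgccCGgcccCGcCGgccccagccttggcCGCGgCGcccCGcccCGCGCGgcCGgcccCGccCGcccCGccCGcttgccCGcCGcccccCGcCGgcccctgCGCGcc
Suv39h2 (chr2:3474987-3475236, minus strand): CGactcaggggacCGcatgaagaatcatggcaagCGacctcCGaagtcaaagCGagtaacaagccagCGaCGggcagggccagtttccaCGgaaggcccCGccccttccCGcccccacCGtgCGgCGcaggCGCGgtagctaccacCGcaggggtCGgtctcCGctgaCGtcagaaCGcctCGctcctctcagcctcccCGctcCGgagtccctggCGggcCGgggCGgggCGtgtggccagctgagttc
Kdm4c (chr4:74251629-74251878, plus strand): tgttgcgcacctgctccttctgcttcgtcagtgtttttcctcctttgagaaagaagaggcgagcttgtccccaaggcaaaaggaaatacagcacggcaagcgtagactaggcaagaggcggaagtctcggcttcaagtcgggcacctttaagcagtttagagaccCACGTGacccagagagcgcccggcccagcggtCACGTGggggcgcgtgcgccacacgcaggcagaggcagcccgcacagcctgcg

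Promoter entries were found for 26 of the 36 genes, the unmeasured Suv39h1 among them, with 34 starts in all. Their 250 bases held a median of 19.5 CG dinucleotides, against 16 in the 11230 starts of all genes compared, and 6 in all 32851 starts of the table. Within the family the number ran from 0 at 1 of the starts of Kdm3a and of Kdm4c to 56 at Kdm7a, with 48 at Kmt2c and 27 at Suv39h2. The letters ACGTG or CACGT, searched on both strands, stood in 12 of the 34 member starts (35.3%) and in 22.0% of the starts of compared genes. Of the hypoxia-related members, Kdm3a had 0 matches at each of its starts, the other start of Kdm4c had 0, and Kdm4b had no promoter entry. A match is a description of these letters and not a bound site.

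By the probe set that stands for each gene, no member above the filter was 1.5-fold or further from control on any treated array. Of the 34 measured members, 33 lay above the filter, and 28 belonged to the bright genes, those at or above a signal of 414, the 75th percentile of probe sets. Kdm4d, an H3K9 demethylase best known from testis, was the member below the filter, with signals of 18.7 in the control, 36.4 with aof2 siRNA, 16.6 with rfk siRNA and 13.9 with tranylcypromine. Signals this dim scatter widely on the log scale, and no direction is read from them.

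At least 1.5-fold from control with aof2 siRNA was 1 member of 34, Kdm4d, against 9.14% of the 10788 genes compared and 4.20% of the 6873 bright genes. With rfk siRNA it was 0 of 34, against 7.72% and 3.19%. With tranylcypromine it was 0 of 34, against 12.3% and 6.31%. All genes compared lie above the filter, and so do the bright genes, while Kdm4d does not. Among the 33 members above it, the count was 0 on each treated array. For all members together the median log2 difference was -0.022 with aof2 siRNA, -0.0066 with rfk siRNA and -0.081 with tranylcypromine, and for all genes compared it was -0.0041, -0.0089 and -0.016. The 3 comparisons share the control array.

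**Figure D1:**
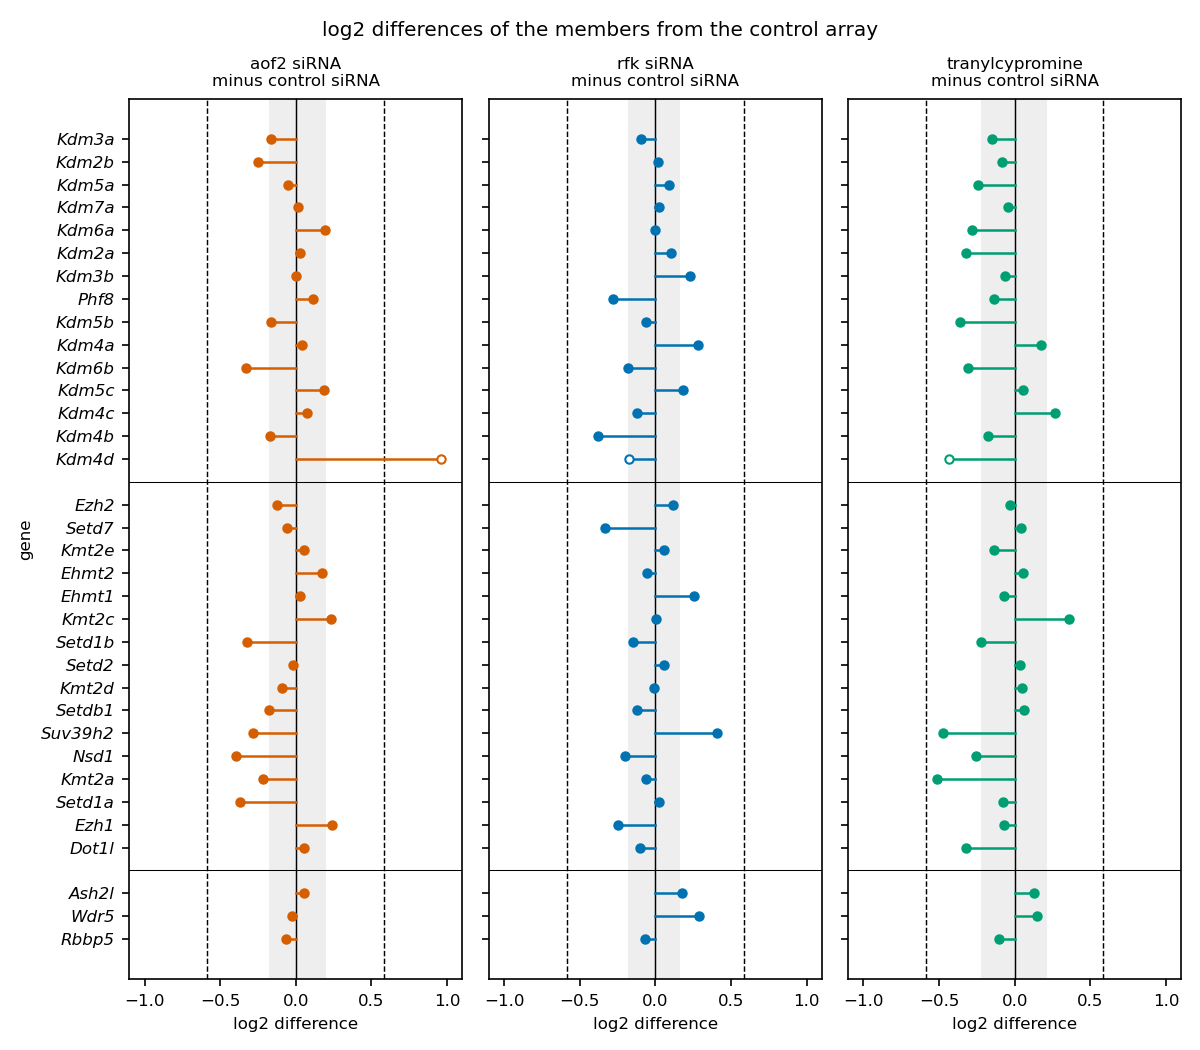
The log2 difference of each member from the control array is plotted on the x axis, 1 panel per treated array and 1 line per gene, with demethylases, methyltransferases and COMPASS core subunits from top to bottom. Dashed lines mark 1.5-fold, grey bands hold the middle 50% of all genes compared, and the open points are Kdm4d, the only member below the filter and the only one past a dashed line.

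The spread of each member over the 4 arrays, highest minus lowest log2 signal, needs no reference array. Its median was 0.33 for the 34 members, 0.33 for the demethylases and 0.32 for the methyltransferases with the core subunits, against 0.39 for all genes compared and 0.32 for bright genes. The highest and lowest arrays differed by at least 1.5-fold in 2 members, Kdm4d and Suv39h2, against 26.5% of all genes compared and 14.2% of bright genes. Kdm7a, a demethylase of H3K9 and H3K27, spread least by the probe set used, by 0.067, with signals of 1511, 1523, 1536 and 1466. Its other probe sets above the filter, with 1226, 1316, 1330 and 1061 and with 211, 213, 258 and 204, spread by 0.33 and 0.34, about the median of the members. Setd2, which places H3K36 trimethylation, followed with 0.080 by the probe set used and signals of 648, 638, 675 and 665.

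**Figure D2:**
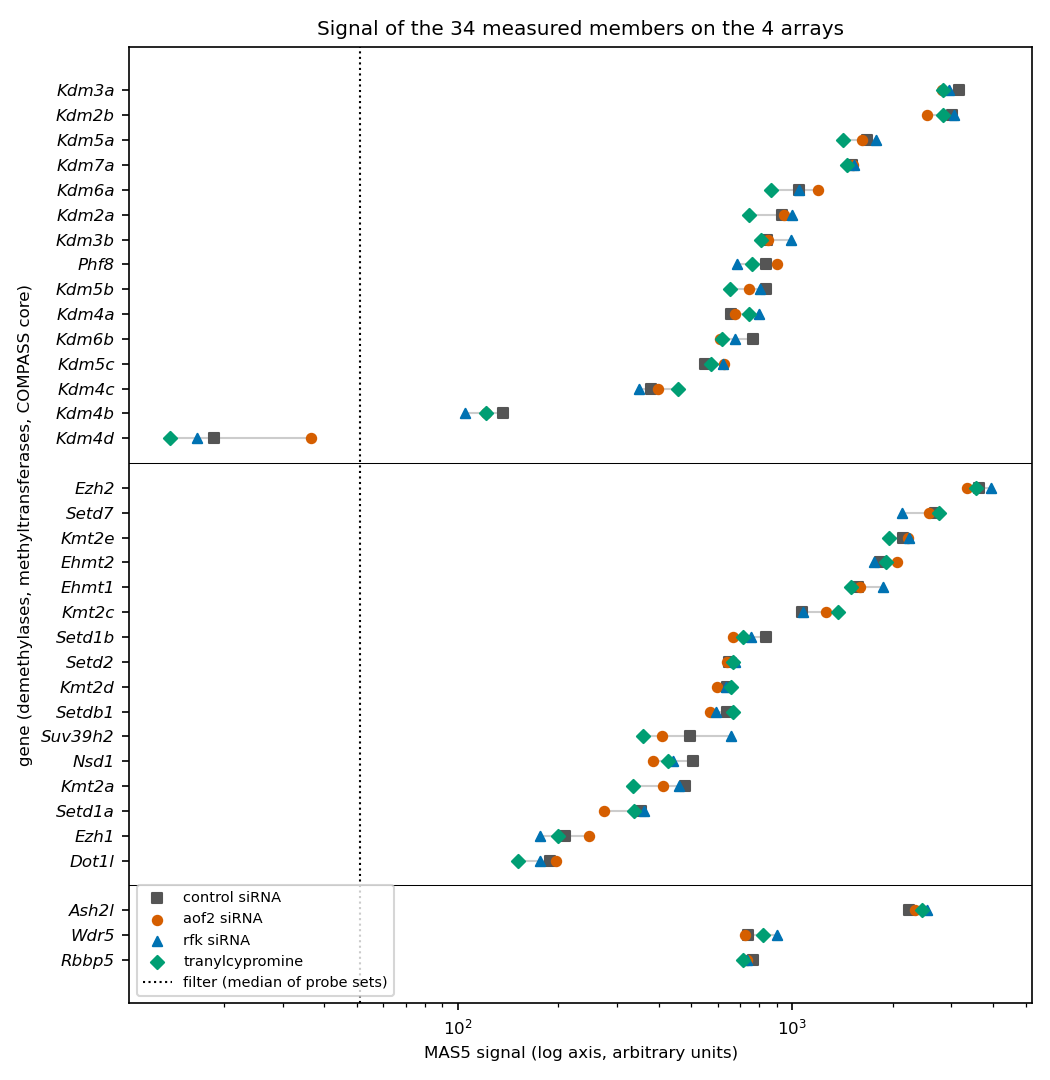
MAS5 signals of the 34 measured members on a log axis, 1 row per gene and 1 marker per array. Signals of different genes come from different probes and are not comparable with each other; along each row the markers lie close together, most widely for Kdm4d and Suv39h2 and most closely for Kdm7a.

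Demethylases of H3K4 form the Kdm5 group. Kdm5b, which removes H3K4 di- and trimethylation, had signals of 837 in the control, 747 with aof2 siRNA, 800 with rfk siRNA and 652 with tranylcypromine. By this probe set it was lowest with tranylcypromine, at a log2 difference of -0.36 from control. Its other probe set above the filter, a dimmer one, gave 0.32, 0.17 and -0.0093. Kdm5c, an X-linked member, had 549, 625, 623 and 572, so the control was the lowest array by the probe set used. A second bright probe set of Kdm5c had 518, 642, 499 and 595, with rfk siRNA lowest. A dimmer one had 124, 69.1, 59.6 and 83.2, with the control highest. Kdm5a, first found as a partner of the retinoblastoma protein, had 1678, 1623, 1786 and 1418, with the tranylcypromine array lowest at -0.24, and 2 of its other probe sets, described below, gave larger differences.

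Demethylases of H3K9 and H3K36 differed little and without a common direction. Kdm3a and Kdm3b act on H3K9. Kdm3a differed by -0.17, -0.09 and -0.15. Kdm3b had signals of 845, 847, 991 and 808, highest with rfk siRNA (0.23). The Kdm4 enzymes act on H3K9 and, for Kdm4a, Kdm4b and Kdm4c, also on H3K36. Kdm4a had 658, 678, 799 and 742, and was highest with rfk siRNA at 0.28. Kdm4b, a known hypoxia target, had 137, 122, 105 and 121 and was highest in the control array, at -0.38 with rfk siRNA. Kdm4c, whose promoter is printed above, had 379, 399, 349 and 456, and at 0.26 with tranylcypromine it was the demethylase furthest above control there.

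Phf8, an X-linked eraser of H3K9 and H4K20 methylation, had signals of 835, 902, 687 and 758. It was lowest with rfk siRNA, at -0.28. Kdm2a, which removes H3K36 dimethylation and binds CpG islands, had 931, 949, 1000 and 746, with tranylcypromine lowest at -0.32. Its relative Kdm2b, which also brings a polycomb complex to CpG islands, had 3015, 2531, 3050 and 2840, with aof2 siRNA lowest at -0.25.

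The H3K27 demethylases are Kdm6a and Kdm6b. Kdm6b, known as an inflammation-induced enzyme, had signals of 764 in the control, 609 with aof2 siRNA, 674 with rfk siRNA and 618 with tranylcypromine, so the control was the highest array. Its differences were -0.33, -0.18 and -0.31. Kdm6a, an X-linked subunit of the Kmt2c and Kmt2d complexes, had 1049, 1201, 1047 and 864, highest with aof2 siRNA (0.19) and lowest with tranylcypromine (-0.28). A second probe set agreed on tranylcypromine (-0.26) but not on aof2 siRNA (-0.24).

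With tranylcypromine the demethylases leaned below control: 11 of the 14 above the filter were lower, against 52.0% of all genes compared, and their median log2 difference was -0.15. The tranylcypromine array was the lowest of the 4 for 6 of the 14, against 28.1% of all genes compared. By the probe set that stands for each gene, each difference on its own was below 1.5-fold. Some other probe sets of Kdm5a, Kdm5c and Kdm6b, described below, were at least 1.5-fold lower with tranylcypromine. With Kdm4d counted, 12 of 15 were lower, 12 under quantile normalization (51.2% of all genes compared), and 13 with arrays centred on their medians, a scaling that put 60.3% of all genes compared lower, at a median of -0.08. With aof2 siRNA 6 of 15 were lower, against 50.7% of all genes compared, at a median of 0.011. With arrays centred on their medians 11 of 15 were lower, but so were 61.9% of all genes compared, at a median of -0.08. With rfk siRNA 8 of 15 were lower, against 51.5%, at a median of -0.0036, and 7 of 15 under quantile normalization.

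Writers of H3K4 methylation are the Kmt2 and Setd1 enzymes and Setd7. Kmt2c, which places monomethylation at enhancers, had signals of 1074, 1263, 1079 and 1378. It was higher with aof2 siRNA (0.23) and with tranylcypromine (0.36), and rfk siRNA stood near control (0.0064). Its close relative Kmt2d, which is required for adipogenesis, did not share this and differed by -0.09, -0.0096 and 0.05. Kmt2a, the mixed-lineage leukaemia protein, had 479, 413, 459 and 336, and with -0.51 in the tranylcypromine array it was the member above the filter furthest below control in any comparison. Its second probe set gave -0.22, 0.03 and 0.05, so the tranylcypromine value rests on 1 of 2 probe sets. Setd1a, a source of H3K4 trimethylation at promoters, had 355, 274, 361 and 337 and was lowest with aof2 siRNA (-0.37).

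Setd1b, the paralogue of Setd1a, differed by -0.32, -0.15 and -0.22, with the control array highest, while its second probe set differed by 0.04, 0.25 and 0.12. Setd7, which monomethylates H3K4 and other proteins, had signals of 2679, 2573, 2131 and 2751, and was lowest with rfk siRNA (-0.33). Kmt2e, a SET-domain protein whose own catalytic activity is debated, ranged over 0.19. Of the COMPASS core subunits, which activate the Kmt2 and Setd1 enzymes, Wdr5 had 737, 726, 903 and 817, highest with rfk siRNA (0.29). Ash2l differed by 0.06, 0.18 and 0.12, and Rbbp5 by -0.06, -0.07 and -0.10. A second, dimmer probe set of Ash2l gave -0.03, 0.15 and -0.37.

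Writers of H3K9 methylation held the widest spread above the filter. Suv39h2, which places H3K9 trimethylation at heterochromatin, had signals of 497 in the control, 410 with aof2 siRNA, 659 with rfk siRNA and 358 with tranylcypromine. The rfk siRNA array was highest, 1.84-fold above tranylcypromine and 1.61-fold above aof2 siRNA, with control in between. A second probe set, with signals of 373, 287, 419 and 399, also had the rfk siRNA array highest but the aof2 siRNA array lowest, and stood at 0.10 with tranylcypromine. The rfk siRNA pairs do not include the control array; at least 1.5-fold apart were 13.4% of genes compared between tranylcypromine and rfk siRNA and 9.49% between rfk siRNA and aof2 siRNA. Suv39h2 and, for the second pair, Kdm4d were the members that reached it. Between tranylcypromine and aof2 siRNA only Kdm4d did, against 7.77%.

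The other H3K9 writers stayed closer together. Ehmt1 and Ehmt2, which act as a heterodimer on H3K9 in euchromatin, differed by 0.03, 0.25 and -0.07 and by 0.17, -0.06 and 0.05. Setdb1, which is brought to repeats by Trim28, differed by -0.17, -0.12 and 0.06. The catalytic subunits of polycomb repressive complex 2, which methylate H3K27, are Ezh1 and Ezh2. Ezh1 had signals of 209, 248, 177 and 200, highest with aof2 siRNA (0.24) and lowest with rfk siRNA (-0.25), but its second probe set stood at 0.40 with rfk siRNA. Ezh2, the form of dividing cells, had 3638, 3332, 3939 and 3561, with aof2 siRNA lowest and rfk siRNA highest (-0.13 and 0.11).

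Among the control and siRNA arrays, Suv39h2 and Ezh2 were lowest with aof2 siRNA and highest with rfk siRNA by the probe sets used. So were Kdm2b, Kdm5a, Setd1a, Setd2 and Wdr5, and the other measured members were not. A further, dimmer probe set of Suv39h2 stood above control with aof2 siRNA, at 0.80. Proliferation genes were listed for comparison. Of 20 listed genes of S phase and mitosis 19 were measured, and 19 of 19 were lower than control with aof2 siRNA (median -0.26), 7 with rfk siRNA (median 0.07) and 12 with tranylcypromine (median -0.15). Of all genes compared, 50.7%, 51.5% and 52.0% were lower on the same arrays. Their summed signal was 88923 in the control, 76749 with aof2 siRNA, 92237 with rfk siRNA and 88137 with tranylcypromine. The part of cell division in the members' values was not tested. In whole cultures fewer cells of a kind and less RNA per cell cannot be told apart.

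Nsd1, which places H3K36 dimethylation, had signals of 508, 385, 442 and 425, so that the control was highest, and at -0.40 it was the member above the filter furthest below control with aof2 siRNA. Dot1l, the H3K79 methyltransferase, had 189, 197, 177 and 151 and was lowest with tranylcypromine (-0.32).

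Methyltransferases and core subunits had joint medians of -0.06, -0.0096 and -0.07. Lower than control were 12, 10 and 11 of 19, against 50.7%, 51.5% and 52.0% of all genes compared. With arrays centred on their medians 16 of 19 were lower with aof2 siRNA and 16 with tranylcypromine, beside 11 and 13 of the 15 demethylases and 61.9% and 60.3% of all genes compared. The demethylase median minus this median was 0.07, 0.0060 and -0.08. Averaging over probe sets turned the aof2 siRNA difference to -0.024 (all probe sets) or -0.014 (those above the filter), so its sign rests on the choice of probe sets. Among the 20 members with several probe sets above the filter, the median distance between the highest and lowest log2 difference was 0.34, 0.25 and 0.45, against 0.31, 0.29 and 0.34 for 5228 such genes.

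Kdm5a had bright probe sets that differed widely in size. Beside the probe set used above, which gave -0.24 with tranylcypromine, the probe set 1452360_a_at had signals of 1490, 1439, 1562 and 875, a difference of -0.77. The next, 1437106_at, had 1453, 1083, 1212 and 478, which put control 3.04-fold above tranylcypromine (-1.60). All 3 were bright, and the tranylcypromine array was lowest in each. A further, dim one above the filter gave 0.20, and a pair below the filter gave 0.05 and 0.49. Which transcript forms these probe sets detect was not tested.

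Other probe sets of Kdm6b and Kmt2c also gave larger differences than the ones used. The probe set 1447612_x_at of Kdm6b, of a kind that may match several transcripts, had 725, 481, 454 and 371, that is -0.59, -0.67 and -0.97. All 3 probe sets of Kdm6b lay below control on all 3 treated arrays, down to -1.14 with tranylcypromine on one with a control signal of 136. For Kmt2c, 1434179_at had 751, 1161, 1010 and 1446, or 0.63, 0.43 and 0.95, and 1427150_at had 343, 440, 337 and 535. Its remaining probe set went the other way with tranylcypromine, at -0.23. Nsd1 had a second probe set with 120, 82.7, 102 and 59.8, a difference of -1.01 with tranylcypromine.

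Counted by probe set, 69 of the members' 97 lay above the filter. With tranylcypromine 8 of the 69 (11.6%) were at least 1.5-fold lower, against 7.03% of all 19780 such probe sets with 1 gene symbol, and 3 (4.35%) were at least 1.5-fold higher, against 7.26%. The 8 belonged to Kdm5a, Kdm5c and Kdm6b with 2 each, and to Kmt2d and Nsd1 with 1 each. The 3 higher ones were 2 of Kmt2c and 1 of Setd1a. With aof2 siRNA 6 of 69 passed in either direction, against 10.3%, and with rfk siRNA 4 of 69, against 8.93%. Probe sets of 1 gene are not independent. Those of Kdm5c disagreed with one another, between 0.20 and -1.64 with tranylcypromine, and those of Setd1a and Suv39h2 that were at least 1.5-fold above control had control signals of 32.2 and 47.5, under the filter. Wdr5 had a second probe set at 0.85, 0.28 and 0.56.

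**Figure D3:**
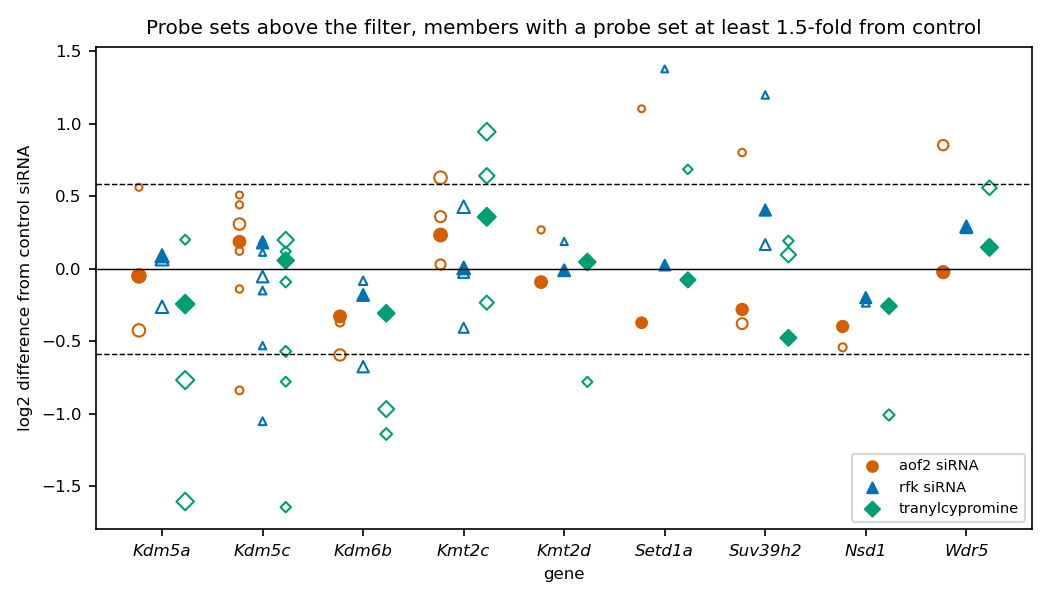
The y axis gives the log2 difference from control of every probe set above the filter, for the 9 members with at least 1 probe set past 1.5-fold (dashed lines), in groups of 3 treated arrays per gene. Filled markers are the probe sets that represent the gene and larger markers are brighter. None of the filled ones passes a dashed line, while bright open ones of Kdm5a reach -1.60 and of Kmt2c 0.95 with tranylcypromine. Dimmer open ones reach -1.64 for Kdm5c with tranylcypromine and 1.38 for Setd1a with rfk siRNA.

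In probe sets above the filter, tranylcypromine put all probe sets of 7 of the 20 members below control (Kdm2a, Kdm2b, Kdm3b, Kdm5b, Kdm6b, Kdm7a and Nsd1), against 30.4% of the 5228 genes, and all of 1 member, Wdr5, above it, against 24.3%. The dimmer Kdm5b probe set stood at only -0.0093. With aof2 siRNA 4 members had all probe sets below control (Kdm2b, Kdm6b, Kmt2a and Nsd1) and 3 all above it (Kdm7a, Kmt2c and Ezh1), against 28.0% and 24.8% of the 5228 genes. With rfk siRNA these numbers were 3 and 7, against 26.0% and 25.7%. Kdm6b and Nsd1 were below control by every such probe set on all 3 treated arrays, 2 of 20 members, against 7.94% of the 5228 genes. The 3 comparisons share the control array, which was the highest for 25.2% of all genes compared.

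Genes around the family were taken from fixed lists. All 8 further demethylases and JmjC proteins were within 1.5-fold of control on each treated array, among them the second flavin-dependent demethylase, Kdm1b, with signals of 412, 424, 404 and 408. Of all genes compared, 9.14%, 7.72% and 12.3% were at least 1.5-fold from control on the aof2 siRNA, rfk siRNA and tranylcypromine arrays. Riox1, a nucleolar JmjC oxygenase, was highest with rfk siRNA at 0.58 and Riox2 was at 0.42, 0.52 and 0.43. Of 17 further methyltransferases, Mecom, also a transcription factor, was at 0.59 with aof2 siRNA and 0.87 with rfk siRNA, and Kmt5b, an H4K20 methyltransferase, was at -0.63 with tranylcypromine. Prdm16, a regulator of brown fat, stood at -1.13 there, at a signal of 28.3 against 61.9 in the control, around the filter.

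The 9 partners of COMPASS complexes were all lower than control with aof2 siRNA, by a median of -0.12, from -0.0075 to -0.41 for Wdr82. At least 1.5-fold lower were 0 of 9, against 2.88% of all genes compared. The median of all genes compared was -0.0041 on that array under the same scaling. It was -0.08 with arrays centred on their medians, for which the partners were not recomputed. With rfk siRNA 3 of 9 were lower and with tranylcypromine 7 of 9. Of all genes compared, 50.7%, 51.5% and 52.0% were lower with aof2 siRNA, rfk siRNA and tranylcypromine. Partners of polycomb repressive complex 2 had 6, 4 and 7 of 8 lower, and with tranylcypromine Jarid2, a targeting subunit, stood at -0.78, and Phf19 was at a signal of 25.4, below the filter, against 86.1 in the control. H3K9 methylation readers and partners had 3, 1 and 2 of 6 lower, with Atf7ip, a partner of Setdb1, at 0.59 and Cbx3, a reader of H3K9 methylation, at 0.66 with aof2 siRNA.

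Histone acetylation enzymes were taken for comparison. Of 10 acetyltransferases 1 passed 1.5-fold with tranylcypromine, against 12.3% of all genes compared, and none with either siRNA, against 9.14% and 7.72%. This was Kat2b, at 0.93 with signals of 1746, 2321, 1505 and 3328. Of 11 deacetylases Hdac1, a subunit shared by LSD1 complexes, was at -0.63 with tranylcypromine and Hdac11 at -0.77 with rfk siRNA, while Hdac9 at 0.63 with rfk siRNA was below the filter. That made 1 of 11 with tranylcypromine, against 12.3%, and 2 of 11 with rfk siRNA, against 7.72%. Of 10 genes that supply the methyl donor and 2-oxoglutarate 8 were measured. On each treated array 0 of 8 passed 1.5-fold, against 9.14%, 7.72% and 12.3% of all genes compared. The methionine cycle gene Ahcy was highest with tranylcypromine (0.30), and Idh2, a mitochondrial isocitrate dehydrogenase, was highest with aof2 siRNA (0.44).

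Targets of hypoxia-inducible factor were listed because Kdm3a, Kdm4b and Kdm4c are known members of that response. Of the 14 targets 11 were lower than control with aof2 siRNA, at a median of -0.33. Ankrd37 was lowest at -1.15, followed by P4ha1, a collagen prolyl hydroxylase, at -0.97 and the mitophagy receptor Bnip3 at -0.86. The stress-response gene Ndrg1 stood above control, at 0.82. With rfk siRNA 12 of 14 were lower (median -0.16) and with tranylcypromine 8 of 14 (median -0.09), where Ankrd37 was lowest at -1.44. Of all genes compared, 50.7%, 51.5% and 52.0% were lower with aof2 siRNA, rfk siRNA and tranylcypromine. Beside them Kdm3a stood at -0.17, -0.09 and -0.15, Kdm4b at -0.17, -0.38 and -0.18, and Kdm4c at 0.07, -0.12 and 0.26.

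**Figure D4:**
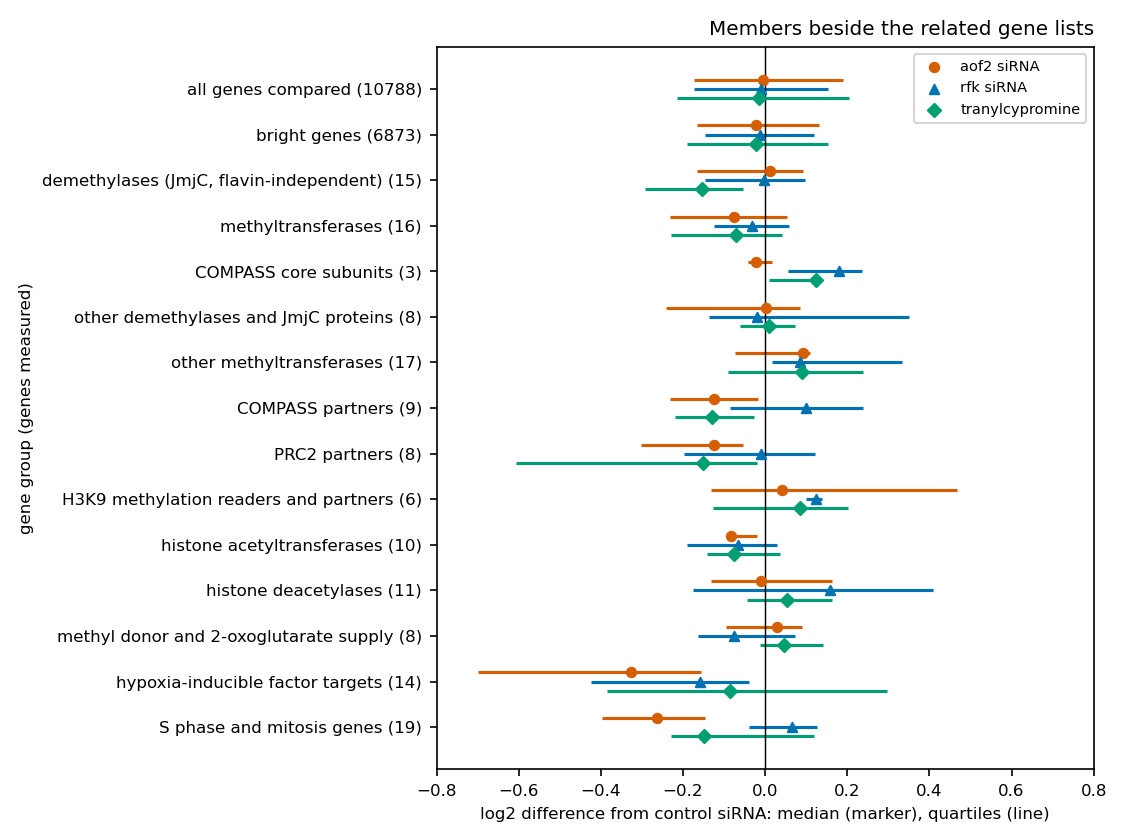
Median log2 difference from control (markers) and quartiles (lines) of the demethylases, methyltransferases and core subunits beside all genes compared, bright genes and the related lists, for the 3 treated arrays; the number of measured genes is in brackets. The demethylase median with tranylcypromine is -0.15, and the hypoxia targets and proliferation genes reach -0.33 and -0.26 with aof2 siRNA.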

How the data were processed

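The values are MAS5 signals, a linear intensity per probe set that the authors deposited for 4 Affymetrix arrays, made from 250 ng of total RNA each with a method that the submitters' processing notes give as MAS5. The sources used here do not give its version or scaling target. The mean without the lowest and highest 2% was 500.003 on each array. Analysis was on log2 signals, without an offset. Of 45101 probe sets 34958 carried 1 gene symbol, 932 carried several and 9211 had no name here. Of those with 1 symbol, 34754 probe sets had a gene identifier found in RefSeq GRCm38.p6, and 0 symbols changed. Genes were compared when their average log2 signal was at least the median over probe sets (10788 genes); all measured members were kept. Called means at least 1.5-fold.

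Members and lists were chosen with earlier results of these data known. Values are given for the 2 highest and 2 lowest demethylases and writers per comparison; other genes and probe sets were named after their values were seen. Alternatives were median centring, quantile normalization, an offset of 50, other probe set rules, stricter filters, comparison with the average of the 3 other arrays, a 2-fold threshold and leaving out the core subunits; the mean of probe sets above the filter was added after seeing the data. Python 3.11.15, NumPy 2.4.6, pandas 2.3.3 and matplotlib 3.10.9 were used, and the steps were tested on simulated data.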

Additional observations from a re-analysis of the deposited data

How the results depend on the processing

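No paired analysis was possible because each group has 1 array, which also leaves no replicate to leave out. Of 117 values recomputed over 12 results and 11 alternatives, 101 stayed within 0.1 (log2) of the value reported or within 1.5 times the count, and 16 did not. The count of members past 1.5-fold with aof2 siRNA, 1, became 0 with an offset of 50, with only members at or above the median signal, with only those at or above the 75th percentile, with a 2-fold threshold and with the mean of probe sets above the filter, since Kdm4d is dim. With the mean over all probe sets of a gene, dim ones included, the counts were 3 with aof2 siRNA, 5 with rfk siRNA and 3 with tranylcypromine. With the mean of probe sets above the filter they were 2 with rfk siRNA (Setd1a and Suv39h2) and 3 with tranylcypromine (Kdm5a, Kdm6b and Nsd1, all lower). Against the mean of the 3 other arrays 1 passed with rfk siRNA (Suv39h2) and 1 with tranylcypromine (Kdm4d). The demethylase median with tranylcypromine was -0.28 as the mean over all probe sets, and the demethylase minus writer median was then -0.24; with rfk siRNA that difference was -0.15, and -0.14 with probe sets above the filter. With aof2 siRNA it turned to -0.024 and -0.014 under the same rules, and with tranylcypromine it was -0.15 among members at or above the 75th percentile. The cause of these shifts between probe set rules was not tested. Signals near or below 50.9 carry no reliable size, as MAS5 leaves dim values without a lower limit.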
